A study of Mus musculus with 18 samples.

Results

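The Hippo pathway genes described here are 10 mouse genes, selected by name, and all 10 were present among the 20066 genes of a table of differentiation stages and among the 20268 genes of a table of reprogrammed fibroblasts. They are the 4 TEAD transcription factors *Tead1*, *Tead2*, *Tead3* and *Tead4*, the coactivators *Yap1* (YAP) and *Wwtr1* (TAZ), the target genes *Ctgf* and *Cyr61*, and the kinases *Lats1* and *Lats2*. In the Hippo pathway the LATS kinases phosphorylate YAP and TAZ and keep them out of the nucleus. When the kinases are inactive, YAP and TAZ enter the nucleus, bind TEAD factors and activate genes such as *Ctgf* and *Cyr61*, whose products are secreted matrix-associated proteins. The pathway responds to cell contact, shape and tension, and much of its control acts on the YAP and TAZ proteins, which RNA levels do not measure.

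The stages were obtained from a mouse embryonic stem cell line of strain 129 that carries a Brachyury GFP reporter and was grown on mouse embryonic fibroblast feeders. They were undifferentiated cells (ESC), mesoderm sorted as Bry.GFP+ and FLK1- (MES), hemangioblast sorted as Bry.GFP+ and FLK1+ (HB), CD41+ hematopoietic progenitors (HP) and CD11b+ macrophages (MAC), with 2 RNA-seq replicates a stage that the authors combined into 1 value. Hemogenic endothelium was not analysed here. The fibroblasts were embryonic day 14.5 mouse embryonic fibroblasts of strain 129, left untreated (uFIB) or given *Tal1* (Scl) and *Lmo2* (SL), *Tal1*, *Fli1*, *Gata2* and *Lmo2* (SFGL), or *Fli1*, *Gata2* and *Lmo2* (FGL), at day 12 and at day 21, with 1 library for each of the 8 conditions. The cells were either wild type or carried an inducible *Tal1* transgene under doxycycline (iTal1-2A-GFP, with rtTA and TRE-TAL1 cassettes), and the labels do not say which library came from which.

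Levels are in FPKM (fragments scaled to transcript length and to the mapped fragments of the library), so they can be compared between genes within a sample. The depth of the stages is unknown. In the fibroblasts the relative depth, estimated from low values, was given against uFIB at day 12. At day 21 it was 1.43 for uFIB but 0.607 for SL, 0.768 for SFGL and 0.59 for FGL, so the untreated library of that day was the deepest of its day, and at day 12 it was 1.56, 1.12 and 1.12 for SL, SFGL and FGL. The labelled stages were checked with marker lists. The summed level of 8 pluripotency markers was 909 FPKM in ESC and 4.14 in HP. The sum of 6 mesoderm markers was 356 FPKM in MES and 227 in HB. Blood markers, 12 in all, summed to 331 FPKM in HP and 545 in MAC. The sum of 8 endothelial markers was 100.04 FPKM in HP and 86.6 in HB, with medians of 10.4 and 1.6. Of the HB sum, 77.6 FPKM came from *Kdr*, the gene of FLK1, by which HB was sorted. The 7 macrophage markers summed to 2302 FPKM in MAC against at most 9.52 in the other stages. In the libraries labelled FGL, *Tal1*, absent from the label, had 7.04 FPKM at day 12. *Fli1*, which is in the label, had 3.35 FPKM at day 21, close to the 3.02 FPKM of uFIB. Factors absent from the label were also found in SL, with 46.7 and 34.4 FPKM of *Fli1* and 68.8 and 62.6 of *Gata2* at days 12 and 21. In uFIB at day 12 these 2 genes had 3.43 and 1.8 FPKM. Supplied copies and the cell's own genes cannot be told apart in these values. Counts of members called that involve the FGL libraries are also given without them, except where FGL itself is compared.

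Promoter sequences (250 bases before and 50 after the annotated start; RefSeq, GRCm38.p6) were at hand for 7 of the 10 genes, *Tead2*, *Tead3*, *Yap1*, *Wwtr1*, *Cyr61*, *Lats1* and *Lats2*. The TEAD core motif, GGAATG on either strand (CATTCC when read on the other), occurred in at least 1 window of 5 of these 7 genes, and in 16.6% of the 27025 genes of the same table. The windows of *Tead2* and *Lats1* held none. Those of the target gene *Cyr61* (chr3:145649936-145650235, minus strand) and of the coactivators *Yap1* (chr9:8004547-8004846, minus strand) and *Wwtr1* (chr3:57575861-57576160, minus strand) are shown because these genes carry the comparison of target and coactivators below, written 5′ to 3′ with the motif in capitals. The motif began 103 bases before the start of *Cyr61*, 141 bases before that of *Yap1* and 136 bases before that of *Wwtr1*. A match to these letters is a description of the sequence only.
Cyr61: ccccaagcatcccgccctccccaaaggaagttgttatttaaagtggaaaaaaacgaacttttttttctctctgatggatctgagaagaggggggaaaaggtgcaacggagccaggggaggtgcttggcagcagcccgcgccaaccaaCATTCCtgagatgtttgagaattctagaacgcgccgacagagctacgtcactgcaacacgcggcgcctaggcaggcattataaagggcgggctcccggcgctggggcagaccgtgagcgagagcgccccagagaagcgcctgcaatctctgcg
Yap1: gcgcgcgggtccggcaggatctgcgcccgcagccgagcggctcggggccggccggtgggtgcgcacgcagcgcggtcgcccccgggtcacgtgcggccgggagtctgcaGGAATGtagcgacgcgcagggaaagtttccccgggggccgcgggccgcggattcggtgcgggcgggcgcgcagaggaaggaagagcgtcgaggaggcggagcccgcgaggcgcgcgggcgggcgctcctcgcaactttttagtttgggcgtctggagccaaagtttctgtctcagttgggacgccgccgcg
Wwtr1: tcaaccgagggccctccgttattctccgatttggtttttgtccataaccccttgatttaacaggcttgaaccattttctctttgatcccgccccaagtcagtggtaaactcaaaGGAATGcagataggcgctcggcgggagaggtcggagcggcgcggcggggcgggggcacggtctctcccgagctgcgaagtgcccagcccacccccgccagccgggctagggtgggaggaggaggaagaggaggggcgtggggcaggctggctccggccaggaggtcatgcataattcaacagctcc

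Among the TEAD factors, which bind DNA but need a coactivator to activate transcription, *Tead2* (chr7:45215753-45233619, mm10) had the highest level at every stage. In stage order, from ESC through MES, HB and HP to MAC, it stood at 28.8, 61.4, 72.5, 14.7 and 0.328 FPKM. It made up between 67.1% (ESC) and 89.7% (MES) of the summed FPKM of the 4 TEAD genes. *Tead2* therefore peaked in HB and was lowest in MAC.

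*Tead1* (chr7:112679320-112906805) had 8.63, 3.77, 5.74, 3.07 and 0.0423 FPKM in stage order, and its sum hid a switch between its start sites. The site TSS17822 had 7.73 FPKM in ESC against 0.904 at TSS17823. In MES these were 1.22 and 2.55 FPKM, in HB 1.55 and 4.19, and in HP 0.78 and 2.29. The site that led in ESC was thus the lower of the pair from MES to HP.

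*Tead4* (chr6:128227143-128300813) had 2.5, 1.52, 6.2, 0.497 and 0.0171 FPKM in stage order, with its highest value in HB. *Tead3* (chr17:28331673-28350805), summed over its 3 start sites, had 2.99, 1.75, 1.08, 0.986 and 0.00816 FPKM. All 4 TEAD genes were therefore under 1 FPKM in MAC, and *Tead3* and *Tead4* were already under it in HP.

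The coactivators have no DNA-binding domain and act through TEAD and other factors. *Yap1* (chr9:7932001-8004596) followed the same course as *Tead2*, with 22.7, 51.1, 67.5, 13.6 and 0.0837 FPKM from ESC to MAC. *Wwtr1* (chr3:57455644-57575910) moved less, with 8.69, 11.7, 10.7, 5.73 and 1.17 FPKM in the same order. The ratio of *Yap1* to *Wwtr1* was 2.61 in ESC, 6.32 in HB and 0.0714 in MAC. *Wwtr1* was thus the more abundant coactivator transcript in macrophages, at a level close to 1 FPKM, and *Yap1* at each earlier stage.

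The 2 target genes took different courses. *Ctgf* (chr10:24595442-24598682; *Ccn2* in RefSeq) was highest before differentiation, at 48.7 FPKM, and went on through 8.78, 5.32 and 8.08 FPKM to 0.0913 FPKM in MAC. *Cyr61* (chr3:145646971-145649985; *Ccn1* in RefSeq) had 24.5, 31.4, 20.3, 14.5 and 2.28 FPKM. Both were lowest in MAC, but between ESC and MES, where *Yap1* and *Tead2* more than doubled, *Ctgf* fell 5.54-fold and *Cyr61* did not pass the 2-fold rule. The ESC were grown on fibroblasts, in which *Ctgf* is abundant. The summed level of 11 fibroblast markers was 10.6, 22.7, 39.3, 62.6 and 4.16 FPKM in stage order. In ESC 4 of the 11 were at 1 FPKM or more (*Thy1* 2.89, *Fbln1* 2.45, *Postn* 1.5 and *Twist1* 1.13). The others were lower there (*Col1a2* 0.82, *Col3a1* 0.63, *Col1a1* 0.524, *Pdgfra* 0.372, *Dcn* 0.165, *Lum* 0.136 and *Prrx1* 0.0344), and none was at 0. The part of feeder RNA in the *Ctgf* level of ESC was not tested.

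The kinases were the only members with their highest unscaled FPKM in MAC. *Lats1* (chr10:7681209-7716461) had 3.27, 3.25, 4.26, 5.16 and 9.03 FPKM in stage order. *Lats2* (chr14:57689662-57746123) had 3.03, 3.72, 5.05, 2.62 and 6.71 FPKM. The upper quartile of all genes was 18.1 FPKM in MAC against 11.4 in HB and 10.8 in HP. Relative to the upper quartile of each stage, *Lats1* was still highest in MAC but *Lats2* was highest in HB. In macrophages the kinase transcripts were therefore present while those of *Yap1* and the TEAD factors were under 1 FPKM.

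**Figure D1:**
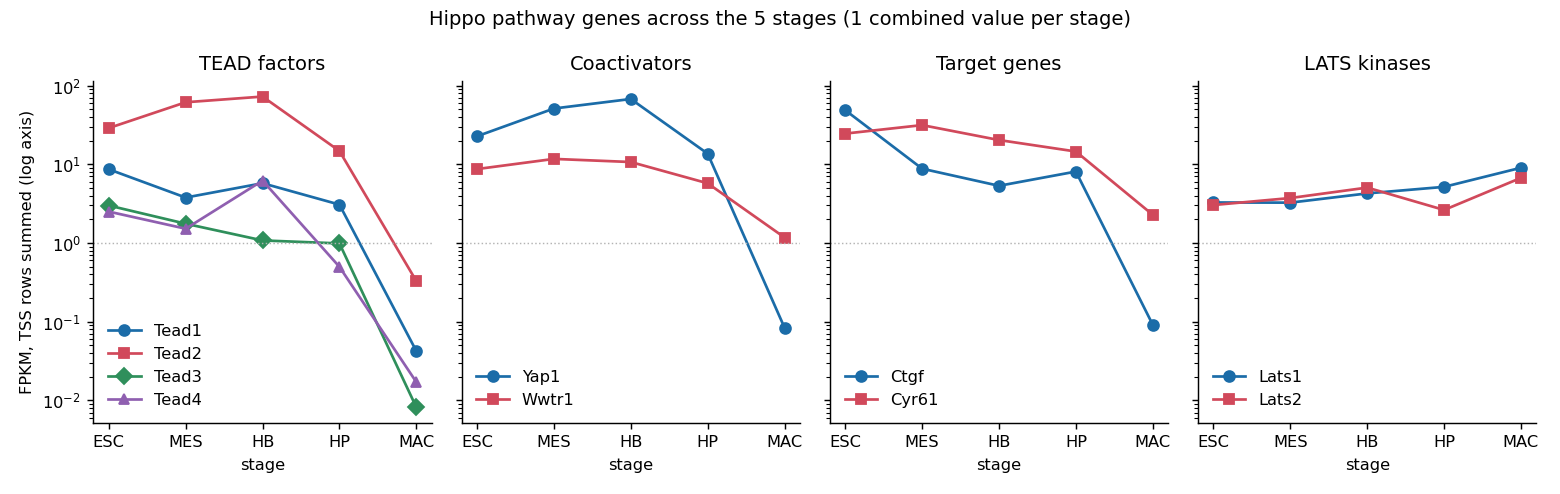
FPKM (log axis, TSS rows summed) of the 10 genes by role in the 5 stages, 1 combined value per stage, with a dotted line at 1 FPKM. *Tead2* and *Yap1* peak in HB at 72.5 and 67.5 FPKM, *Ctgf* is highest in ESC at 48.7 FPKM, and *Lats1* and *Lats2* are highest in MAC at 9.03 and 6.71 FPKM. Values are not scaled to the upper quartile, which was higher in MAC than in the other stages. Relative to it *Lats2* was highest in HB.

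With 1 value per stage no test was possible. A change was called when it was at least 2-fold on log2(FPKM + 0.001) with 1 FPKM or more in the higher stage. From ESC to MES, 2 of the 10 genes rose, *Tead2* (2.13-fold) and *Yap1* (2.25-fold), where 11.3% of 10606 genes rose, and 2 fell, *Ctgf* and *Tead1* (2.29-fold), where 12% fell. From MES to HB only *Tead4* passed the rule, rising 4.09-fold (4.05% of genes rose and 6.3% fell). From HB to HP 3 of the 10 fell, namely *Tead2* (4.92-fold), *Yap1* (4.95-fold) and *Tead4* (12.5-fold), against 12.8% of genes that fell and 12.3% that rose.

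From HP to MAC, 6 of the 8 members with at least 1 FPKM in either stage fell, where 16.9% of 10819 genes fell. The ratio of HP to MAC was 163 for *Yap1*, 88.5 for *Ctgf*, 72.7 for *Tead1*, 45 for *Tead2*, 6.37 for *Cyr61* and 4.89 for *Wwtr1*. *Lats2* rose 2.56-fold and *Lats1* had a ratio of 1.75 (38% of genes rose). The median gene was 0.45 higher in MAC than in HP on log2(FPKM + 1). After scaling to the upper quartile *Lats2* no longer passed the rule, the 6 falls remained and *Tead3* was added to them, and of all called genes 42.6% rose instead of 69.3%.

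Other genes of the pathway were grouped into 13 kinases and adaptors, 10 genes called partners and 19 further genes known as targets. The group called partners holds negative regulators and other partners of YAP and TEAD proteins. From HP to MAC 6 of 12 kinases and adaptors rose and 2 fell, where 38% of all genes rose and 16.9% fell, with a median of 0.95 against 0.45 for all genes on log2(FPKM + 1). *Stk4*, which encodes the MST1 kinase that activates LATS kinases, had 18.7 FPKM in HP and 47.4 in MAC, and *Taok3*, an upstream kinase, 5.06 and 14.5. Of 7 partners 3 fell and none rose, beside the same shares of all genes. *Amot*, whose product binds YAP, climbed over the first 3 stages (11.3, 51.2 and 167 FPKM), then fell to 20.5 FPKM in HP and 0.303 in MAC.

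Of 18 further targets 8 fell and 6 rose from HP to MAC, against 16.9% and 38% of all genes. *Amotl2* went from 15.6 FPKM in HP to 0.0539 in MAC and *Ankrd1* from 10.7 to 0.032. *Axl*, a receptor kinase also known for its part in macrophage clearance of dying cells, went from 4.08 to 104 FPKM, and *Myof* from 2.26 to 109. From HB to HP, 5 of 17 further targets fell and 6 rose, against 12.8% and 12.3% of all genes, with *Ankrd1* among the latter at 0.557 and 10.7 FPKM.

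In the fibroblasts the same genes were present at other levels and in other proportions. The TEAD genes together had 92 FPKM in uFIB at day 12 and 67.6 at day 21. *Tead1* was the leading TEAD gene in all 8 libraries, with 42.1% to 53.7% of the sum. *Tead2* had 20.2% to 30.1% and *Tead3* 22.4% to 26.7%, so that *Tead3*, at most 6.96% of the sum in the stages, was here about as abundant as *Tead2*. The tables were normalized separately, so no test was made between them.

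**Figure D2:**
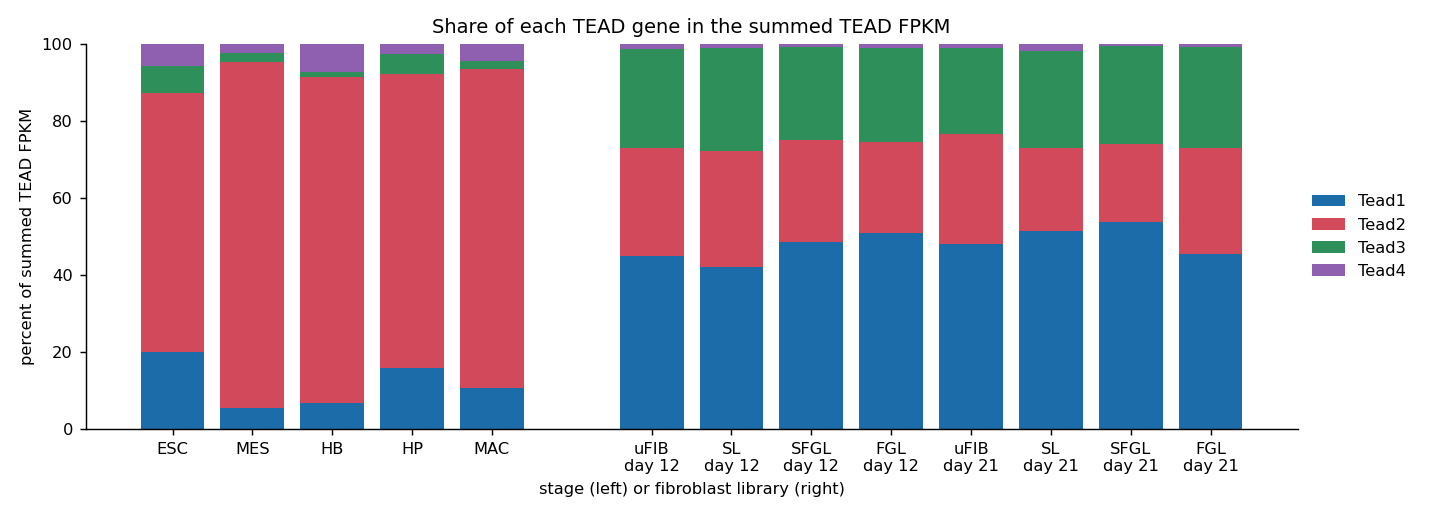
Percent of the summed TEAD FPKM contributed by each of the 4 TEAD genes in the 5 stages (left) and the 8 fibroblast libraries (right), 1 bar per stage or library. *Tead2* makes up 67.1% to 89.7% in the stages and *Tead1* 42.1% to 53.7% in the fibroblasts.

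*Tead1*, *Tead2* and *Tead3* were lower in the libraries given *Tal1* than in the others on both days. At day 12 uFIB had 41.4 FPKM of *Tead1*, SL 12.1, SFGL 11.2 and the library labelled FGL 50.6, and at day 21 these values were 32.5, 21.9, 14.8 and 38.6 FPKM. In the same order *Tead2* had 25.8, 8.67, 6.07 and 23.6 FPKM at day 12 and 19.3, 9.23, 5.57 and 23.4 at day 21. *Tead3* had 23.7, 7.69, 5.53 and 24.1 FPKM at day 12 and 15.1, 10.8, 7 and 22.1 at day 21. For each of the 3 genes every SL and SFGL library lay below every uFIB and FGL library. *Tead4* had 1.18, 0.306, 0.151 and 1.02 FPKM at day 12 and 0.676, 0.722, 0.172 and 0.746 at day 21, so its groups overlapped, and with a mean of 0.621 FPKM it was too low for the test.

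Both coactivators were lower in the same libraries. At day 12 uFIB had 46.5 FPKM of *Yap1*, SL 16.4, SFGL 11.4 and FGL 47.1, and at day 21 they had 40.6, 28.2, 21.8 and 43.8 FPKM. *Wwtr1* had 35.3, 15.5, 11.9 and 35.2 FPKM at day 12 and 30.1, 17.9, 13.8 and 35.6 at day 21. Neither gene had an SL or SFGL value as high as any uFIB or FGL value.

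The target genes were the most abundant members, and here the days differed. At day 12 uFIB had 171 FPKM of *Ctgf*, SL 51.3, SFGL 51.5 and FGL 196, but at day 21 they had 107, 201, 202 and 164 FPKM. *Cyr61* had 298, 144, 107 and 334 FPKM at day 12 and 158, 232, 186 and 213 at day 21. SL and SFGL were thus the lowest libraries for both targets at day 12, and for *Ctgf* the highest at day 21.

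Of the kinases, *Lats1* had 18, 11.9, 11.8 and 17.4 FPKM at day 12 and 14.6, 11, 10.6 and 14.3 at day 21, in the order uFIB, SL, SFGL and FGL. *Lats2* had 42.3, 22.7, 18.1 and 44.8 FPKM at day 12 and 30.4, 32.3, 24.1 and 35.5 at day 21. *Lats1* was lower in each SL and SFGL library than in the others, and *Lats2* overlapped at day 21. In all, 6 of the 10 genes showed no overlap, where 31.1% of the tested genes had every *Tal1* library below every other library. Against the uFIB libraries alone, without FGL, 6 of the 10 genes again showed no overlap, and 36.5% of the tested genes did.

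**Figure D3:**
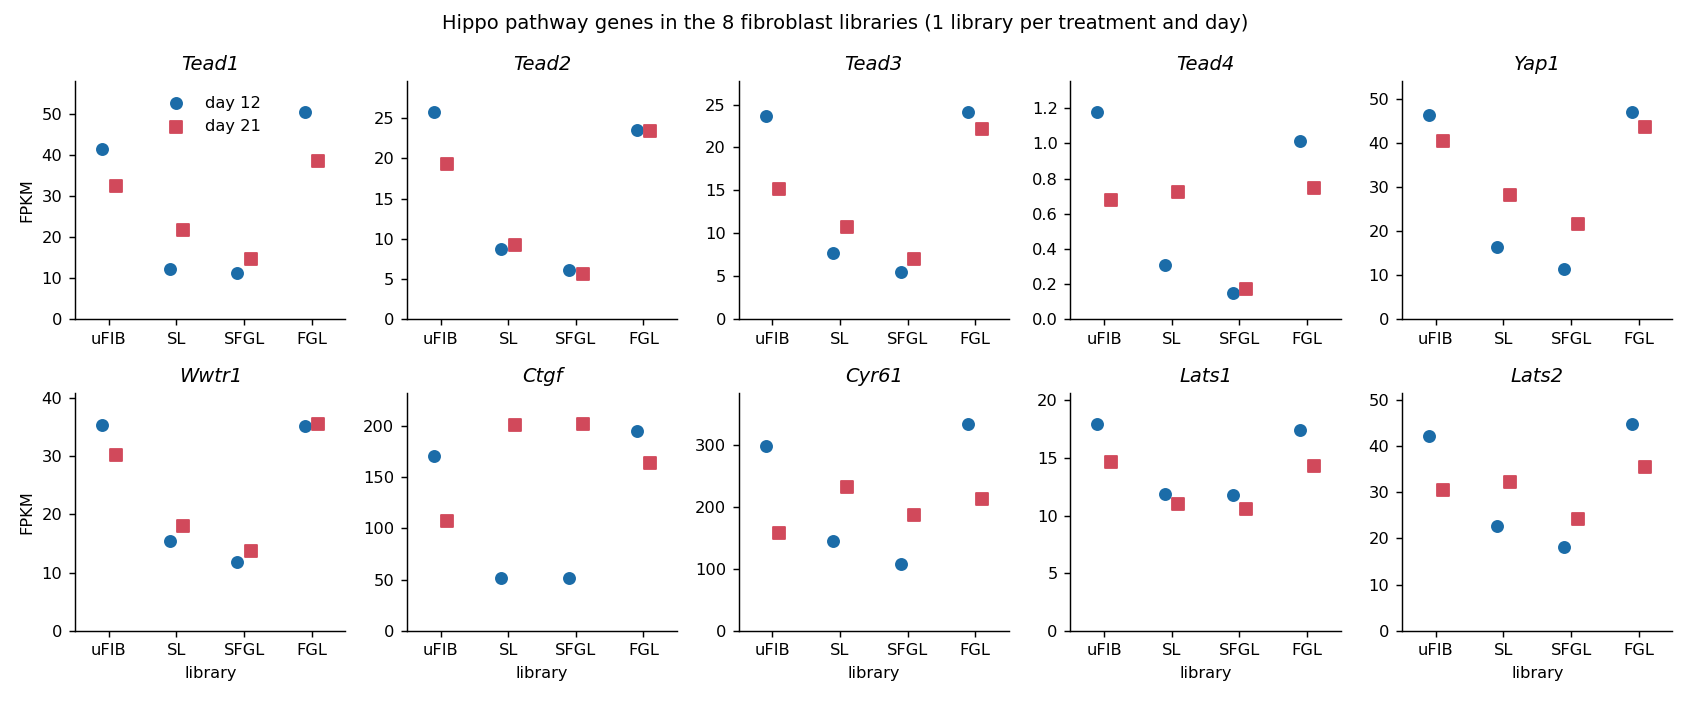
FPKM of the 10 genes (linear axes from 0, each with its own scale) in the 8 fibroblast libraries by treatment, circles for day 12 and squares for day 21, 1 library per point. SL and SFGL lie below uFIB and FGL for *Tead1*, *Tead2*, *Tead3*, *Yap1*, *Wwtr1* and *Lats1* on both days, while *Ctgf* in SL and SFGL is 51.3 and 51.5 FPKM at day 12 and 201 and 202 FPKM at day 21.

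The treatments were compared with limma on log2(FPKM + 1) over 11989 genes, with treatment and day as additive terms, so that the test takes a difference to be the same on both days. In SL, 6 of the 9 members tested were lower than in uFIB (adjusted p under 0.05 after Benjamini-Hochberg adjustment), where 27.1% of genes were lower. *Tead2* fell by 1.23 on the log2 scale (SE 0.14, adjusted p = 0.0019), *Tead1* by 1.12 (SE 0.31, adjusted p = 0.03) and *Tead3* by 0.98 (SE 0.26, adjusted p = 0.026). *Yap1* fell by 0.98 (SE 0.3, adjusted p = 0.041), *Wwtr1* by 0.93 (SE 0.14, adjusted p = 0.0038) and *Lats1* by 0.47 (SE 0.1, adjusted p = 0.012). *Ctgf*, *Cyr61* and *Lats2* did not pass, with adjusted p of 0.67, 0.68 and 0.27.

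Within days the log2 difference of SL from uFIB was -1.47 at day 12 and -0.99 at day 21 for *Tead2*, -1.69 and -0.55 for *Tead1*, -1.51 and -0.45 for *Tead3*, -1.45 and -0.51 for *Yap1*, -1.14 and -0.72 for *Wwtr1* and -0.56 and -0.38 for *Lats1*. The calls of *Tead2* and *Wwtr1* were kept in each of the 8 fits that left out 1 library. Without uFIB at day 12 the adjusted p was 0.16 for *Tead1*, 0.11 for *Tead3*, 0.22 for *Yap1* and 0.083 for *Lats1*, and without SL at day 12 it was 0.15, 0.15, 0.22 and 0.087. *Yap1* was also lost without SL at day 21 (0.066) and *Tead1* without SFGL at day 12 (0.051) or day 21 (0.05).

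In SFGL the same 6 genes passed and were lower, where 30.8% of genes were lower. The log2 difference was -1.77 (SE 0.14, adjusted p = 0.00064) for *Tead2*, -1.46 for *Tead3*, -1.44 for *Tead1*, -1.4 for *Yap1*, -1.28 for *Wwtr1* and -0.5 for *Lats1*, with adjusted p of at most 0.011 for these 6. Within days it was -1.92 at day 12 and -1.63 at day 21 for *Tead2*, -1.92 and -1.01 for *Tead3*, -1.8 and -1.09 for *Tead1*, -1.94 and -0.87 for *Yap1*, -1.5 and -1.07 for *Wwtr1* and -0.57 and -0.43 for *Lats1*. The calls of *Tead1*, *Yap1* and *Lats1* were lost without uFIB at day 12 (adjusted p = 0.073, 0.069 and 0.061) and without SFGL at day 12 (0.075, 0.069 and 0.054). *Lats2* (-0.75, adjusted p = 0.058) passed only when uFIB at day 21 was left out (-1.07, adjusted p = 0.042). *Ctgf* and *Cyr61* had differences of -0.4 and -0.62 with adjusted p of 0.67 and 0.3. On each day 9 of the 10 genes had a lower FPKM in SFGL than in SL, a difference that was not tested.

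The library labelled FGL did not show these differences. None of the 9 members tested passed against uFIB in limma, where 0.0167% of genes did, and none had an unadjusted p under 0.05. The 95% interval of the log2 difference was -0.28 to 0.42 for *Tead2*, -0.22 to 0.45 for *Wwtr1*, -0.7 to 0.83 for *Yap1* and -1.44 to 2.25 for *Ctgf*. Compared with FGL, SL was lower for the same 6 genes, where 24.5% of genes were lower, and the log2 difference ranged from -0.43 (*Lats1*) to -1.38 (*Tead1*). In that comparison 2 members were called without SL or FGL at day 12, 3 without FGL at day 21 and 4 without SL at day 21, *Tead2* and *Wwtr1* among them each time. Fewer of all genes were called lower in these fits as well. With both FGL libraries left out, the 6 members called against uFIB remained 6 in SL and 6 in SFGL. Of 11944 genes 3123 were then lower in SL and 3562 in SFGL.

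Fibroblast and blood markers moved with these results. Of 12 fibroblast markers 11 were lower in SL and 12 in SFGL, with median log2 differences of -1.85 and -2.08, and all 12 blood markers were higher, with medians of 4.67 and 5.17. Their summed levels ranged from 1366 to 2770 FPKM for fibroblast markers in SL and SFGL and from 6372 to 8341 in uFIB and FGL, and from 597 to 1047 FPKM and 30.4 to 123 FPKM for blood markers. The 2 FGL libraries were unlike in blood markers, with 123 FPKM at day 12 and 43.5 at day 21, where uFIB had 30.4 and 48.2. No fibroblast marker was at 0 in any library. In bulk RNA, fewer fibroblasts and less RNA per fibroblast cannot be told apart. At day 12, 2 of the 10 members in SL and 3 in SFGL had a log2 difference from uFIB below the fibroblast marker median of the same library (-1.63 and -1.91). At day 21 none of the 10 did (-1.83 and -2.2). *Tead4*, with 1.18 FPKM in uFIB at day 12 and 0.676 at day 21, could not fall below these medians on this scale. The part of the marker change in the members' differences was not tested.

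Between days no member passed in the additive limma fit, where 2.63% of genes did, and of the 9 tested only *Lats1* had an unadjusted p under 0.05. Without both FGL libraries no member passed either, where 2 genes were higher and 7 lower of 11944. The direction between days depended on the treatment. In uFIB all 10 genes had a lower FPKM at day 21 than at day 12 and in FGL 9 did, but in SL 1 did and in SFGL 2. *Ctgf* at day 21 was 3.92 times its day 12 level in SL and 3.93 times in SFGL, and 0.63 and 0.84 times in uFIB and FGL. For *Cyr61* the ratios were 1.61, 1.74, 0.532 and 0.636, and for *Yap1* 1.72, 1.91, 0.873 and 0.93.

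This led to a further limma fit, chosen after the values were seen, with an interaction for the difference between days. In it the libraries with *Tal1* in their label (SL and SFGL) were set against the others (uFIB and FGL) on each day. The spread in this fit is that between the different treatments within each group, not between replicates. At day 12 all 9 members tested were lower with *Tal1*, where 30% of genes were. The log2 difference was -1.89 (SE 0.19) for *Tead1*, -1.81 (SE 0.19, adjusted p = 0.00038) for *Ctgf*, -1.7 (SE 0.18) for *Yap1* and -1.34 (SE 0.21, adjusted p = 0.0016) for *Cyr61*, and none of the 9 calls was lost when a library was left out. At day 21, 6 members were lower, where 32.1% of genes were, and *Ctgf* was higher by 0.6 (SE 0.19, adjusted p = 0.032). *Cyr61* (0.18, adjusted p = 0.49) and *Lats2* (-0.23, adjusted p = 0.28) did not pass there. The *Ctgf* call at day 21 held in 3 of 8 fits that left out 1 library. Without uFIB at day 21 it was 0.29 (adjusted p = 0.11), without SL at day 21 0.6 (0.089), without SFGL at day 21 0.59 (0.1), without SL at day 12 0.6 (0.051) and without SFGL at day 12 0.6 (0.051). Without both FGL libraries 9 members were lower at day 12, and at day 21 4 were lower and *Ctgf* was higher (0.9, adjusted p = 0.0054), with *Tead3* (adjusted p = 0.094) and *Yap1* (0.079) lost. *Tead3* and *Yap1* also lost their calls at day 21 without SFGL at day 21 (adjusted p = 0.067 and 0.068) or FGL at day 21 (0.073 and 0.061).

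The difference between days passed for 1 member, *Ctgf*, where 0.309% of genes passed, with a log2 difference of 2.41 (SE 0.27, adjusted p = 0.031, 95% interval 1.76 to 3.06). *Cyr61* had 1.52 (SE 0.3, adjusted p = 0.082), *Yap1* 0.96 (adjusted p = 0.14), *Tead1* 0.95 (adjusted p = 0.16) and *Tead2* 0.19 (adjusted p = 0.83). Over the 8 fits that left out 1 library the *Ctgf* value stayed between 2.1 and 2.71 but the call was kept only without uFIB at day 12. It was lost without uFIB at day 21 (adjusted p = 0.11), SL at day 12 (0.11) or day 21 (0.084), SFGL at day 12 (0.085) or day 21 (0.11), or FGL at day 12 (0.056) or day 21 (0.052), and without both FGL libraries (2.61, adjusted p = 0.074).

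**Figure D4:**
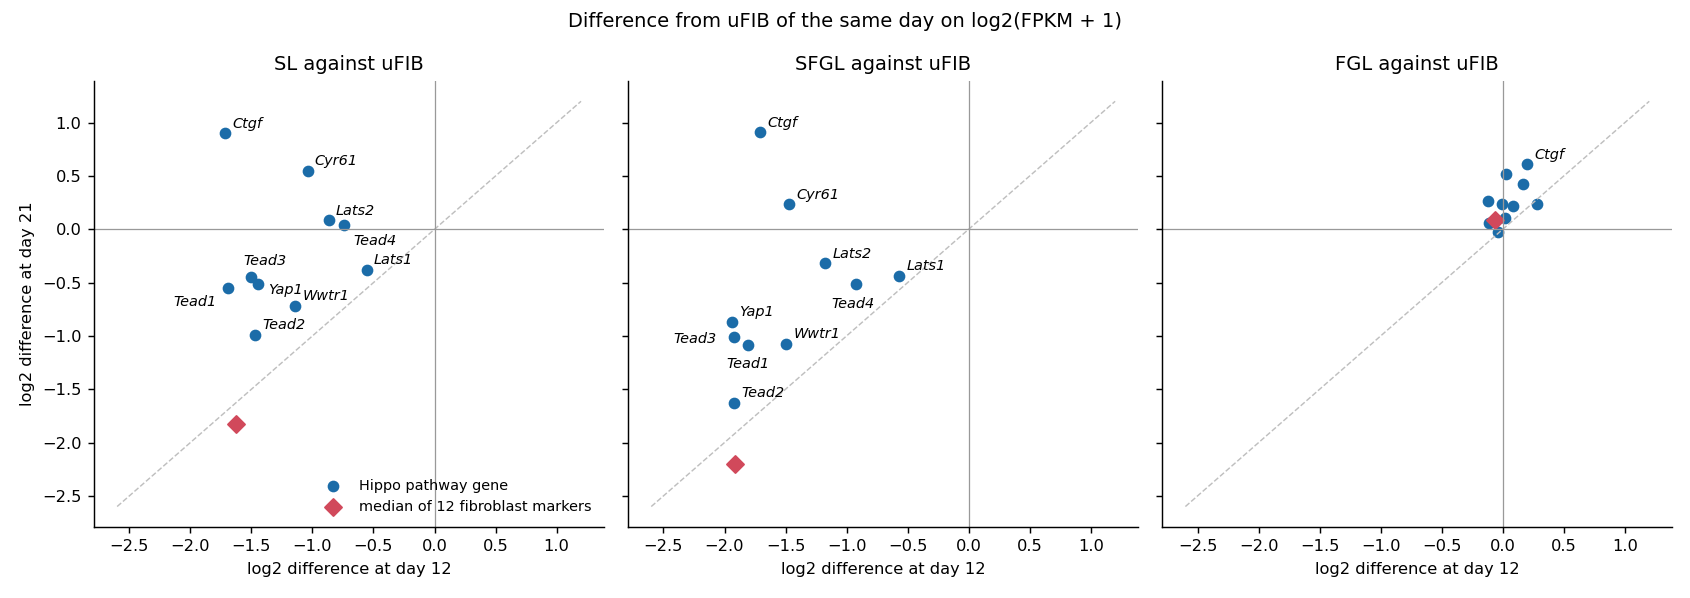
Log2 difference from uFIB of the same day at day 12 (horizontal) and day 21 (vertical) on log2(FPKM + 1) for the 10 genes in SL, SFGL and FGL, with the median of 12 fibroblast markers as a diamond and a dashed line of equal values. In SL and SFGL *Ctgf* lies at -1.71 at day 12 in both and at 0.9 and 0.91 at day 21. The fibroblast markers lie below all 10 genes at day 21, of which *Tead4* could not lie lower at its level in uFIB. In the FGL panel only *Ctgf* is named.

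Among the other pathway genes in the fibroblasts, 6 of 13 kinases and adaptors were lower and 2 higher in SL than in uFIB, where 27.1% of all genes were lower and 25.4% higher, with a median log2 difference of -0.19 against -0.03 over all genes. *Stk4* was higher by 1.79 (SE 0.18, adjusted p = 0.0014) and *Taok3* by 1.32 (SE 0.11, adjusted p = 0.0011), both also higher in MAC than in HP. *Map4k4*, another upstream kinase, was lower (log2 difference -1.2, SE 0.1, adjusted p = 0.0012). Of 9 partners tested 6 were lower and none higher, beside the same shares, with a median of -1.24, and *Fat4*, an atypical cadherin upstream of the pathway, had the greatest log2 difference of them, -2.22 (SE 0.16, adjusted p = 0.0011).

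Of 18 further targets tested 8 were lower and 4 higher in SL, and 10 lower and 4 higher in SFGL, where 30.8% of all genes were lower and 27.9% higher. These counts moved with single libraries, and so did the number of all genes called lower, which also fell in each of the following fits. Over the 40 listed genes tested, 20 were lower in SL, but 10 without uFIB or SL at day 12, and 24 were lower in SFGL, but 14 without uFIB or SFGL at day 12. *Igfbp3* (log2 difference -3.37 in SL, SE 0.43, adjusted p = 0.0026) and *F3* (-1.85) were lower, while *Nt5e*, an ectonucleotidase also known as CD73, was higher (2.67, SE 0.21, adjusted p = 0.0011). *Ankrd1* resembled *Ctgf* in part, with 11, 13.9, 16.2 and 30 FPKM in uFIB, SL, SFGL and FGL at day 12 and 8.64, 66.6, 78.1 and 18.8 at day 21. In the fit by *Tal1* label it was higher at day 21 by 2.4 (SE 0.47, adjusted p = 0.0043) and its difference between days was 2.67 (SE 0.67, adjusted p = 0.12). None of the 40 listed pathway genes tested other than the members passed for the difference between days with limma, but 2 did after upper quartile scaling and 3 without uFIB at day 12. An unadjusted p under 0.05 was found for 14 of the 40, against 16.3% of all genes. Their median was 0.27 against -0.05 over all genes.

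For 9 of the 10 members, *Tead4* being too low in the fibroblasts, the most similar genes were sought over the 13 values of 5 stages and 8 libraries, each table centred and scaled, among 10017 genes. *Tead2* and *Wwtr1* were among the 3 genes most like each other, with a pooled Pearson r of 0.99 (0.99 over the 5 stages and 0.99 over the 8 libraries). The genes closest to *Tead2* were *Fzd2*, *Wwtr1* and *Ift81*, those closest to *Wwtr1* were *Tead2*, *Epn2* and *Kank2*, and those closest to *Yap1* were *Arhgef17*, itself listed among the further targets, *Id3* and *Usp13* (r of 0.98 each). *Ctgf* had the weakest likeness, with 0.93 for *Steap2*, 0.89 for *Klhl13* and 0.88 for *Hspb1*, and *Cyr61* was most like *Tnk2* (0.96), *Smad7* (0.94) and *Ctps* (0.93). No member was among the 3 genes most like *Tead1*, which were *Sh3bp4*, *Qser1* and *Bcar1*. *Tead3* was most like *Nlgn2*, *Bcar1* and *Sox4*, *Lats1* most like *Cyth3*, *Cr1l* and *Ifi202b*, and *Lats2* most like *Tulp4*, *Itgb1* and *Crk*. These values share libraries and depth and are a description.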

How the data were processed

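RNA-seq of 10 stage samples and 8 fibroblast libraries was used. The authors deposited 2 tables of FPKM values made with Cufflinks, per start site (22089 rows) with 2 replicates a stage combined, and per gene (20495 rows) with 1 value per fibroblast library. The submitters' processing notes name Cufflinks for the stages, Bowtie and HOMER for the ESC samples, TopHat and Cufflinks for the fibroblasts and the build mm10, without versions. Per the labels, ribosome-depleted total RNA was used for the stages. In the table of stages 1 column of values belonged to no sample given here and was not used. The low fibroblast values did not give whole reads, so depth is relative only and no count test was run.

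Start sites were summed per gene. Fibroblasts were tested with limma 3.58.1 (R 4.3.3; lmFit, eBayes with trend, 3 residual degrees of freedom, two-sided) on log2(FPKM + 1) for genes averaging 1 FPKM or more over the 8 libraries, with Benjamini-Hochberg adjustment over all genes tested. With 1 library per condition, p-values of the additive fit measure only the spread that treatment and day leave between these libraries. The fit by *Tal1* label has 4 residual degrees of freedom. On each day it takes SL and SFGL as 1 group and uFIB and FGL as the other. Its p-values therefore measure the spread between different treatments, not between replicates. The members and lists were chosen with earlier results of these data known. Named were the 10 members, the listed genes with the 3 largest called changes in each direction, the 3 genes most like each member, and the supplied factors. The difference between days of *Ankrd1*, the printing of fibroblast marker values in ESC and the promoters shown were chosen after the values were seen. The scripts were tested on simulated data. Alternatives were other pseudocounts, filters, folds, upper quartile scaling, limma without trend, the highest start site alone, and leaving out libraries.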

Additional observations from a re-analysis of the deposited data

Results flagged for a closer look

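The response of *Ctgf* to the treatments with *Tal1* differed between the days, by 2.41 on the log2 scale in the limma fit by *Tal1* label (adjusted p = 0.031). That fit was chosen after the values were seen, and its spread is between different treatments, not replicates. The call was kept in only 1 of the 8 fits that left out 1 library, and was lost without both FGL libraries. Against uFIB of the same day *Ctgf* had log2 differences of -1.71 at day 12 and 0.900 at day 21 in SL and of -1.71 and 0.91 in SFGL. The following pairs moved in opposite directions on the 2 days with 1 library each, and the difference for each single treatment was not tested. *Cyr61* had -1.04 and 0.55 in SL and -1.47 and 0.23 in SFGL. *Lats2* had -0.87 and 0.084 in SL, and *Tead4* had -0.74 and 0.039, the latter at levels of at most 1.18 FPKM. In the libraries labelled FGL the values were smaller, with -0.12 and 0.26 for *Tead2*, -0.0060 and 0.23 for *Wwtr1* and -0.11 and 0.059 for *Tead4*.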

How the results depend on the processing

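No paired analysis was possible because the 2 replicates of each stage are combined into 1 value and each fibroblast condition has 1 library. For the same reason leaving out a stage replicate was not run. Among the stages, a fold of at least 4 left 1 of the 4 members called from ESC to MES. Of 10606 genes 297 rose and 390 fell by that rule. A fold of at least 1.5 raised the count to 5 from MES to HB, where 1006 of 10211 genes rose and 1073 fell. From HB to HP it raised the count to 7, where 2026 of 10505 genes rose and 2519 fell. No called stage change of a member reversed under another pseudocount, upper quartile scaling or the highest start site alone. With the latter *Tead1* was no longer called from HP to MAC and *Tead3* was called from ESC to MES. In the fibroblasts the number of members called ranged from 2 to 6 for SL against uFIB, from 3 to 7 for SFGL against uFIB, from 2 to 6 for SL against FGL, from 4 to 7 at day 21 by *Tal1* label and from 0 to 1 for the difference between days when 1 library was left out. That difference was called for 0 members without both FGL libraries. Without the filter on low values *Yap1* missed the threshold in SL against uFIB (adjusted p = 0.061) and against FGL (0.055). In the additive fit 2 of the listed pathway genes passed for day 21 against day 12 over all treatments, but 1 with a pseudocount of 0.1, 0 without the filter on low values or without both FGL libraries, and 0 in 6 of the 8 fits that left out 1 library. Where a library was left out fewer samples were fitted. Each such fit also called fewer of all genes lower in SL or SFGL against uFIB, in SL against FGL and at day 21 by *Tal1* label. By *Tal1* label at day 21 the number was smaller without both FGL libraries too. The cause of the other differences was not tested. The FPKM values carry no counts, so the precision of the low macrophage levels is unknown, and with 1 library per condition a library and its condition cannot be told apart.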
